A study of Triticum aestivum with 24 samples.

Results

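The genes described here are wheat leaf genes that were lower in all 3 well-watered TOR lines than in well-watered wild type. They were chosen from the deposited normalized counts by a fixed rule. The mean of the WT well-watered libraries had to reach 50, and log2((line mean + 1)/(WT mean + 1)) had to be -1 or less in each of UBQ, DREM and DEH2. Of 107891 deposited identifiers 39866 reached that WT level, and 107 of them met the differences, a share of 0.268%. The rule left out identifiers at the start of chromosome 1B and in a long stretch of 2A, which removed 2 and 7 genes. The remaining 98 genes are the members, fewer than the limit of 200, so none was dropped for lack of room.

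The study measured leaf RNA of wheat (Triticum aestivum, with the subgenomes A, B and D) in TOR expression lines and in the spring wheat Fielder, the wild type (WT) that was transformed to make them. The labels call the lines UBQ, DREM and DEH2, written UBQ/TOR, DREM/TOR and DEH2/TOR, and do not spell out these names, the promoter used or the number of transformation events behind a line. The series' design text names other genotypes and a re-watered state, which were not analysed here. Each of the 4 genotypes had 3 drought libraries and 3 well-watered libraries, which makes 24 in all. Well-watered means 80% field capacity; for drought, plants raised that way to an age of 4 weeks went 12 days without water. The labels do not state when leaves were sampled, or whether replicates were separate plants. P-values therefore measure only the spread between these libraries, which may be technical.

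TOR is the target of the drug rapamycin, a protein kinase through which plants, fungi and animals match growth to their supply of nutrients and energy. In Arabidopsis active TOR promotes protein synthesis and cell growth and restrains autophagy. There, too, signalling by TOR and by the stress hormone abscisic acid hold each other in check. Wheat is hexaploid, so that most genes have a copy in each subgenome, and reads that fit several copies can be divided between them. No identifier matched a named gene in the reference table of 155467 wheat genes. Genes are therefore given by identifier, with no role, pathway or sequence, and neither the level of TOR nor leaf marker genes could be checked. An identifier such as TraesCS3B02G073700 gives the chromosome (3B) and the order along it (073700).

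The libraries were deep and replicates were alike, but stretches of chromosome went against the genotype labels. Sums of normalized counts ran from 32500000 to 54400000 per library and estimated depths from 33700000 to 55300000 reads. Libraries of the same group correlated at r = 0.974 to 0.986 across tested genes and at 0.910 to 0.985 across the members, where genes are not independent replicates. The start of 1B was almost silent in DREM drought and in DEH2 well-watered, with median log2 deviations of -4.99 and -4.97. Deviations are from the median of all 4 genotypes of the same regime. It was not lowered in DREM well-watered or DEH2 drought. A stretch of 2A was lower in WT drought, by a median of -0.72, and in UBQ well-watered, by -0.77, but not in WT well-watered or UBQ drought. UBQ drought alone had a nearly silent start of 6B (median -4.09) and a raised end of 4B (median 0.87). Each genotype label thus covers drought and well-watered libraries that differ in at least 1 stretch. Which labels are at odds cannot be told apart, so every group below is a group of libraries labelled so, and none can be left out as the faulty one. The members hold 0 genes of the stretches on 1B, 2A and 6B and 1 gene of that on 4B.

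In well-watered leaves the members were low in the lines by choice, and these values are given as a description. The median member had a mean normalized count of 35.7 in UBQ, 53.2 in DREM and 35.6 in DEH2, against 155 in WT. The median log2 difference from WT was -1.93 in UBQ, -1.48 in DREM and -1.87 in DEH2. DREM was the line nearest to WT for 51 members, UBQ for 30 and DEH2 for 17. A difference of at least 4-fold was reached by 47 members in UBQ, 23 in DREM and 40 in DEH2, and by 10 in all 3 lines. In 97 of the 98 members every WT library lay above all 9 line libraries. Among all genes with a WT mean of 50 or more 6.93% did so, a share from which nothing is read because the rule used this contrast. Per-gene spread within groups was wider for members than for all tested genes in every group of either regime except WT well-watered. The median SD was 0.26 against 0.15 log2 units in UBQ well-watered and 0.22 against 0.16 in WT drought. In WT well-watered both were 0.16.

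The exception was TraesCSU02G155909, named after its values were seen. It was detected in some replicates of a group and not in others, with 66.4, 0 and 0 in DEH2 well-watered and 0, 95.3 and 152 in WT well-watered, and 0 in every UBQ and DREM library of that regime. Under drought it reached 91.7 in UBQ replicate 2 and 82.0 in DEH2 replicate 3 and was 0 in the other 10 libraries. Its membership therefore rests on 2 of 3 WT libraries.

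The member lowest in its least affected line was TraesCS1B02G397500. It had 2.49, 1.25 and 2.44 in UBQ leaves, 1.08, 0.986 and 0.805 in DREM leaves and 0, 0 and 5.34 in DEH2 leaves, against 67.4, 55.04 and 37.9 in WT leaves, all well-watered. The highest of its 3 log2 differences was -4.15. Next came TraesCS3D02G061000, whose highest difference was -3.01. It stood at 12.7, 14.1 and 12.6 in UBQ leaves, 9.02, 21.2 and 20.1 in DREM leaves and 1.00, 6.59 and 0 in DEH2 leaves, against 177, 141 and 107 in WT leaves.

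The most abundant members were lower in the lines without being silent there. TraesCS3B02G578200 had 1561, 1749 and 1582 in UBQ leaves, 4042, 4189 and 4207 in DREM leaves and 3430.2, 2907 and 2992 in DEH2 leaves, against 9158, 8929 and 7921 in WT leaves. TraesCS3D02G141100 had 222, 249.7 and 317 in UBQ leaves, 1869.7, 1629 and 1976 in DREM leaves and 654, 515 and 539 in DEH2 leaves, against 4493, 4611 and 4305 in WT leaves. No line library of either gene reached a WT library.

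At the edge of the rule, TraesCS2B02G411800 and TraesCS4B02G143700 were the last genes kept, with highest differences of -1.005 and -1.004. The genes just outside were TraesCS3D02G077400 and TraesCS4B02G207900, each at -0.99. TraesCS3D02G077400 was nearly silent in UBQ (5.79 ± 2.76) and lower in DEH2 (138 ± 12.0), and missed the rule only through DREM (400.2 ± 34.6), against 797 ± 114 in WT (SD, n = 3 each).

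**Figure D1:**
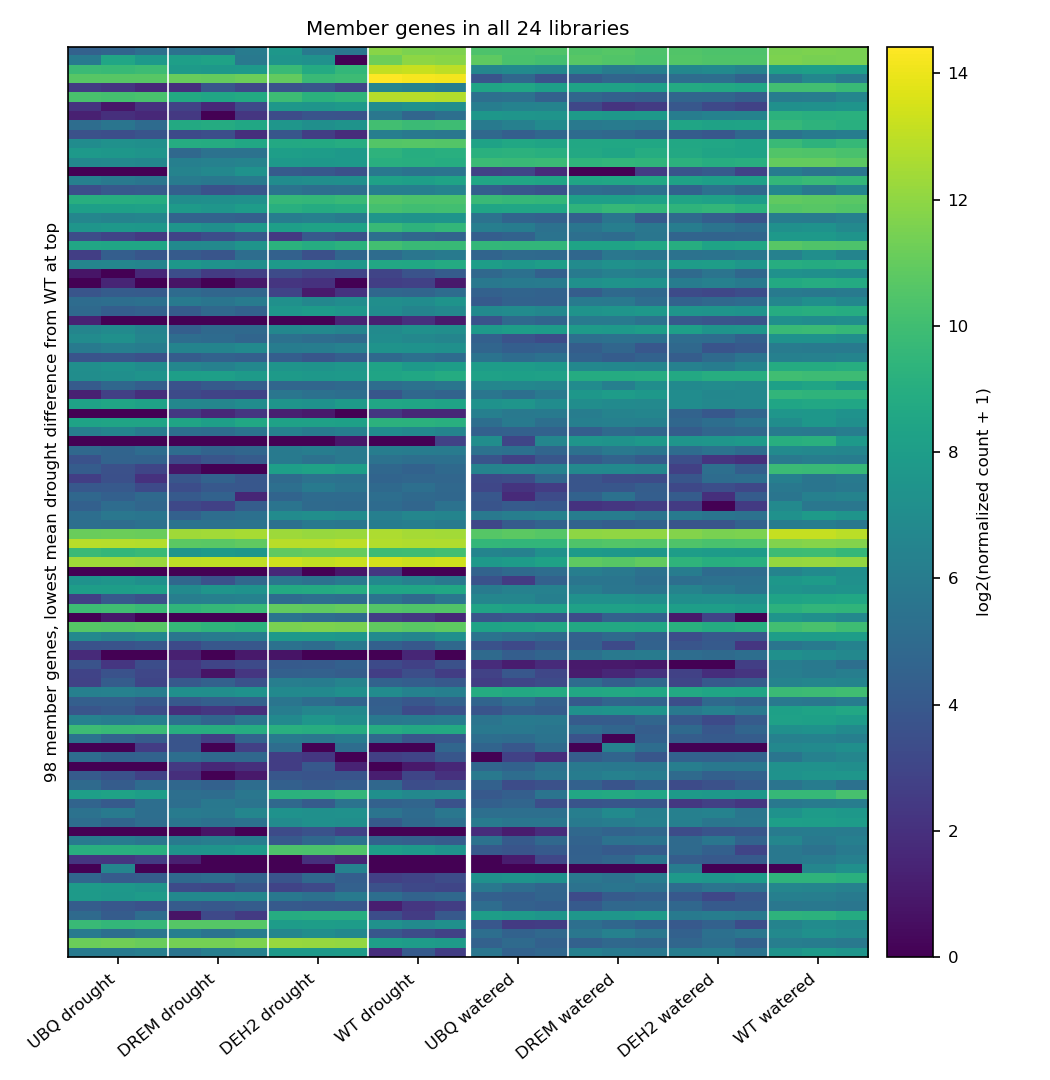
Each row is 1 of the 98 members and each column 1 of the 24 libraries, coloured by log2(normalized count + 1), with drought groups on the left and well-watered groups on the right of the thick line. WT well-watered, at the far right, is the brightest of the well-watered groups in nearly every row, as the rule requires, while under drought rows run from far below WT (top) to far above it (bottom).

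The members lay on 20 of the 21 chromosomes, none on 5A, and 4 had no assigned chromosome. Subgenome B held 40 members (40.8%), D 32 (32.7%) and A 22 (22.4%), whereas of the 60088 tested genes B held 19748, D 19829 and A 19691. Parts of 1B and 2A were not eligible, so these shares are a description. Chromosome 3B had the most members, 10 of 3162 tested genes. Most members stood alone: only 6 lay in 2 runs in which at most 5 tested genes separate neighbours. These were 4 genes on 1B and 2 on 3D.

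The 1B run reached from TraesCS1B02G397200 to TraesCS1B02G397900 and spanned 6 tested genes. TraesCS1B02G397200 had 43.7, 34.0 and 29.7 in UBQ leaves, 21.1, 28.9 and 21.4 in DREM leaves and 9.82, 14.7 and 14.1 in DEH2 leaves, against 258, 249 and 261 in WT leaves, well-watered. TraesCS1B02G397700 had 45.0, 58.5 and 55.7 in UBQ leaves, 16.7, 17.6 and 26.4 in DREM leaves and 14.8, 8.32 and 16.9 in DEH2 leaves, against 299, 292 and 245 in WT leaves, also well-watered. The pair between them that did not meet the rule, TraesCS1B02G397300 and TraesCS1B02G397400, was lower as well, with log2 differences of -0.64 in UBQ, -1.99 in DREM and -2.49 in DEH2 for the first and -0.95, -2.19 and -3.44 for the second. All 6 neighbours were thus lower in every well-watered line, and UBQ alone kept that pair out of the set.

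Under drought the same run was ordered differently. DEH2 drought was highest and DREM drought lowest in the group means of all 6 genes. Well-watered, DEH2 had the lowest mean of every gene of the run but TraesCS1B02G397500, where DREM did. DREM drought and DEH2 well-watered were also the groups low at the start of 1B, where stretches went against the labels. Whether the order in this run follows that conflict of labels was not tested. TraesCS1B02G397200 had 108, 79.8 and 101 in UBQ drought, 47.4, 57.6 and 64.7 in DREM drought and 211, 225 and 187 in DEH2 drought, against 117, 92.9 and 146 in WT drought. It was higher in DEH2 than in WT (log2 difference 0.82 ± 0.20 SE, limma adjusted p = 8.47e-04) and lower in DREM (-1.04 ± 0.20 SE, limma adjusted p = 5.26e-05). In UBQ it did not pass the test (-0.28 ± 0.20 SE). TraesCS1B02G397700 had 112, 188 and 141 in DEH2 drought against 53.3, 59.3 and 65.6 in WT drought, a difference of 1.27 ± 0.25 SE that passed (limma adjusted p = 6.08e-05). This gene was lower in DREM than in WT (-0.66 ± 0.25 SE, limma adjusted p = 0.0244), and its difference in UBQ, 0.33, did not pass.

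**Figure D2:**
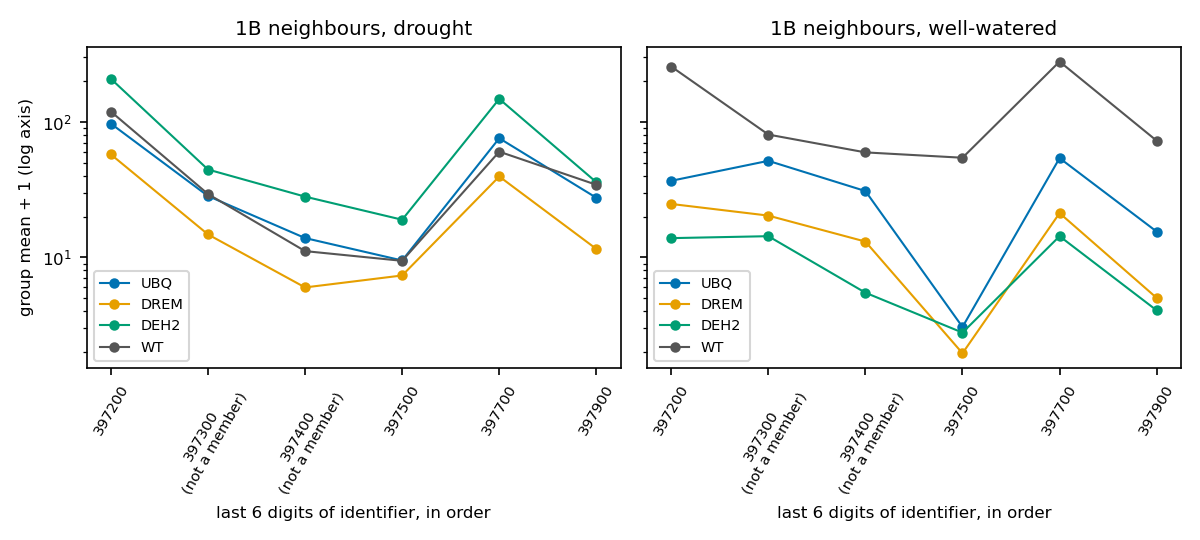
Group means of the 6 neighbouring tested genes of the 1B run (log axis, mean normalized count + 1, 3 libraries a group), under drought on the left and well-watered on the right, in order along the chromosome. Well-watered, WT lies above the 3 lines at every gene; under drought DEH2 lies above and DREM below the others at every gene.

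The 3D run was a pair of adjacent identifiers whose values parted under drought. TraesCS3D02G517300 had 1.55, 5.58 and 2.86 in UBQ drought, 8.50, 6.85 and 6.61 in DREM drought and 49.6, 40.2 and 36.4 in DEH2 drought, against 13.5, 27.6 and 23.5 in WT drought, so DEH2 was the highest group. TraesCS3D02G517400 had 34.9, 47.4 and 32.1 in UBQ drought, 428, 460.3 and 386 in DREM drought and 191, 143 and 166 in DEH2 drought, against 1052, 919 and 976 in WT drought, so WT was the highest. DREM exceeded UBQ by 3.46 ± 0.18 SE in TraesCS3D02G517400 (limma adjusted p = 2.50e-15). Well-watered, both were higher in WT, with means of 681 ± 25.8 and 662 ± 121 (SD, n = 3).

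How the members behaved under drought was measured in libraries that the rule did not use. A single limma model of log2(value + 1) was fitted to the 60088 genes that reached a value of 10 in 3 or more libraries. All 98 members passed this filter, and a gene was called at a Benjamini-Hochberg adjusted p under 0.05 over all tested genes. Members needed a WT well-watered mean of 50, which only 39866 identifiers reached, whereas tested genes needed only the filter. Members and background were thus not matched for level. In UBQ drought 55 members were lower and 17 higher than in WT drought, 56.1% and 17.3% of them, against 30.3% and 30.6% of all tested genes. DREM drought had 60 members below and 17 above WT drought, 61.2% and 17.3%, against 30.3% and 28.6%. DEH2 drought had 37 below and 32 above, 37.8% and 32.7%, against 29.7% and 28.3%.

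The members were thus called lower more often than the background in UBQ and DREM. In DEH2 both shares were above the background by smaller margins. The median log2 difference of the members from WT drought was -0.84 in UBQ, -1.17 in DREM and -0.01 in DEH2, beside medians of 0.01, -0.01 and 0.00 over all tested genes. With groups at 0 set to 3 reads a library, and members under that floor in both groups left out, the medians were -0.80, -1.17 and -0.04. The 3 comparisons share the WT drought libraries and are not independent of each other. The top 50 genes took 29.0% of the total of WT drought replicate 1, against 12.6% in both sister libraries. Leaving that library out gave 50 lower and 17 higher members for UBQ, against 28.5% and 28.6% of all tested genes in the same fit. It gave 59 lower and 14 higher for DREM, against 28.4% and 26.3%, and 35 lower and 29 higher for DEH2, against 27.9% and 26.6%. In bulk leaf RNA, fewer cells that express a gene and less RNA per cell cannot be told apart.

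Many of these differences were large. Members called and at least 2-fold lower than WT drought numbered 41 in UBQ, 53 in DREM and 24 in DEH2, where 12.7%, 12.7% and 11.8% of all tested genes met the same limits. Those at least 2-fold higher numbered 16 in UBQ, 12 in DREM and 20 in DEH2, where 15.8%, 14% and 13.8% of all tested genes did. As shares of the members, the large falls thus exceeded the background in every line. The large rises were near the background in UBQ and DREM and above it only in DEH2. The summed members made up 0.0859 to 0.0920% of a library in UBQ drought, 0.0895 to 0.0943% in DREM drought and 0.122 to 0.131% in DEH2 drought, against 0.162 to 0.199% in WT drought. WT drought therefore had the highest sum although DEH2 drought had the higher median, since a few abundant members set the sum.

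Medians and means of the members in single libraries differed in how they placed DEH2. On the log2(value + 1) scale the member median was 5.14, 5.12 and 5.17 in UBQ drought, 5.05, 4.999 and 5.13 in DREM drought and 6.07, 6.02 and 6.01 in DEH2 drought, against 5.77, 5.73 and 5.77 in WT drought. By medians the DEH2 libraries lay above those of WT, and the UBQ and DREM libraries below. The mean of the members was 5.30, 5.41 and 5.28 in UBQ drought, 5.12, 5.02 and 5.20 in DREM drought and 6.22, 6.09 and 6.14 in DEH2 drought, against 6.14, 6.07 and 6.15 in WT drought. By means DEH2 and WT overlapped, while UBQ and DREM again lay below WT. Well-watered, the medians were 5.45, 5.12 and 5.27 for UBQ, 5.72, 5.83 and 5.59 for DREM and 5.11, 5.35 and 5.21 for DEH2, against 7.29, 7.36 and 7.22 for WT.

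Differences between lines under drought do not use the values of WT libraries, although the model's spread is estimated over all 8 groups. DEH2 drought had 53 members higher and 11 lower than UBQ drought, 54.1% and 11.2%, against 20% and 20.2% of all tested genes, with a median difference of 0.86. DREM drought had 54 members lower and 11 higher than DEH2 drought, 55.1% and 11.2%, against 22.1% and 20.5% of all tested genes, with a median of -0.91. Between DREM drought and UBQ drought 34 members were lower and 19 higher, 34.7% and 19.4%, against 22.8% and 20%, and the median difference was 0.00. Members called and at least 2-fold apart showed the same split. DEH2 exceeded UBQ by that much in 40 members and lay below it in 8, against 5.89% and 7.61% of all tested genes. DREM lay below DEH2 in 45 and above it in 8, against 6.98% and 6.55%. DREM lay below UBQ in 24 and above it in 11, against 8.27% and 6.37%. Libraries of DEH2 lay all above those of UBQ in 57 members and all below in 14, against 26.4% and 27.2% of tested genes. DREM libraries lay all below those of DEH2 in 56 members and all above in 13, against 27.9% and 26.7%. DREM libraries lay all below those of UBQ in 34 members and all above in 25, against 29.3% and 26.2%, so that this last split is near the background.

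By group means DEH2 was the highest drought group for 36 members and the lowest for 6, beside 21.5% and 21.4% of all tested genes. UBQ was the highest for 7 and the lowest for 32, beside 23.6% and 22.5%. DREM was the highest for 12 and the lowest for 45, beside 21.5% and 22.8%. WT was the highest for 43 and the lowest for 15, beside 33.4% and 33.3%. Ties, in members and in all tested genes, were counted for the first of UBQ, DREM, DEH2 and WT. Through ties at 0, TraesCS2B02G031900, TraesCS7B02G328700 and TraesCS7A02G510000 count as lowest in UBQ and TraesCSU02G155909 as lowest in DREM.

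**Figure D3:**
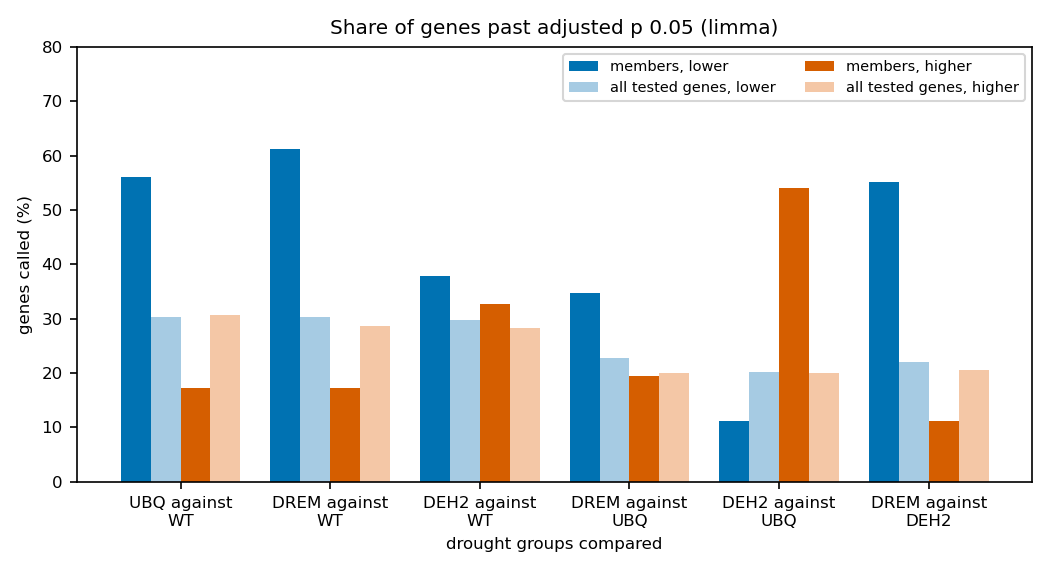
Bars give the percentage of the 98 members and of the 60088 tested genes that were lower or higher (limma, adjusted p under 0.05) in each of 6 comparisons between drought groups. Members exceed all tested genes among lower calls in UBQ and DREM against WT (56.1% and 61.2%) and in DREM against DEH2 (55.1%), and among higher calls in DEH2 against UBQ (54.1%).

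**Figure D4:**
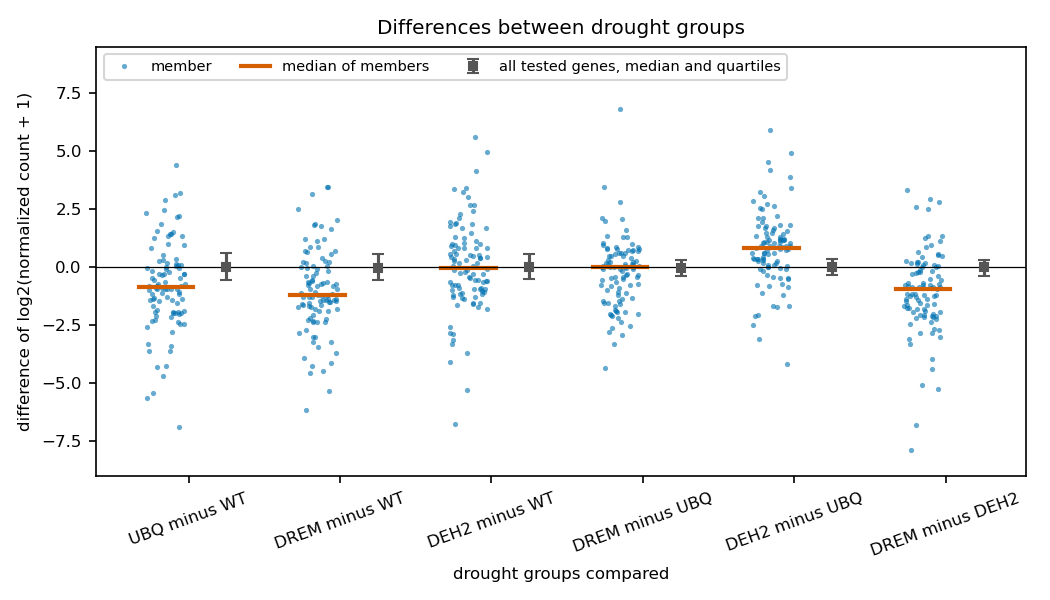
Each point is the difference of 1 member between 2 drought groups in log2(normalized count + 1); orange lines are medians of the 98 members, and grey squares with bars are the median and quartiles of all 60088 tested genes. Member medians lie at -0.84, -1.17 and -0.01 against WT and at 0.00, 0.86 and -0.91 between lines, while the squares of all genes lie near 0.

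Among called members with a mean of at least 50 in the higher group, TraesCS1A02G420700 had the largest deficit against WT drought in UBQ and in DREM. TraesCS1A02G420700 had 21.5, 24.9 and 38.0 in UBQ drought, 41.5, 38.3 and 62.1 in DREM drought and 198, 57.4 and 50.1 in DEH2 drought, against 3695, 3067 and 3177 in WT drought. Every WT library was far above all 9 line libraries. The log2 difference was -6.87 ± 0.35 SE in UBQ (limma adjusted p = 1.17e-11), -6.13 in DREM (limma adjusted p = 6.29e-11) and -5.30 in DEH2 (limma adjusted p = 5.29e-10). Well-watered, the gene stood at 1349.7 ± 42.2 in UBQ, 1453 ± 93.9 in DREM and 1372 ± 70.7 in DEH2, against 2987 ± 66.1 in WT (SD, n = 3 each).

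TraesCSU02G186800, which has no assigned chromosome, had a similar profile with more scatter. It had 58.1, 368 and 217 in UBQ drought, 283, 320.2 and 54.9 in DREM drought and 176, 154 and 0 in DEH2 drought, against 2407, 3937 and 3715 in WT drought. The groups did not overlap with WT, yet libraries of each line differed severalfold among themselves. Its difference in DEH2 was -6.77 ± 1.36 SE (limma adjusted p = 3.75e-04) and depended on a single library at 0: without DEH2 drought replicate 3 it was -4.31. In UBQ and DREM it was -4.28 and -4.25 (limma adjusted p = 0.0116 and 0.0126). Those calls were lost without UBQ drought replicate 1 (adjusted p = 0.0571) and without DREM drought replicate 3 (0.0627).

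TraesCS6A02G023200 had higher means under drought than when watered in every genotype, with the highest in WT. It had 917, 847 and 932 in UBQ drought, 227, 209 and 218 in DREM drought and 872, 456 and 753 in DEH2 drought, against 8672, 9362 and 8198 in WT drought. Well-watered it had 96.0, 118 and 103 in UBQ leaves, 100.2, 63.6 and 72.6 in DREM leaves and 101, 118 and 86.2 in DEH2 leaves, against 259, 285 and 266 in WT leaves. The drought difference from WT was -5.32 ± 0.18 SE in DREM (limma adjusted p = 4.16e-17), -3.28 in UBQ and -3.70 in DEH2. WT libraries exceeded every line library in both regimes.

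TraesCS5D02G146500 was nearly absent from UBQ and DREM drought but not from DEH2 drought. It had 3.57, 0.856 and 3.09 in UBQ drought, 6.17, 2.21 and 8.25 in DREM drought and 201, 179 and 214 in DEH2 drought, against 127, 154 and 137 in WT drought. The difference from WT was -5.42 ± 0.35 SE in UBQ (limma adjusted p = 1.27e-14) and -4.55 in DREM (limma adjusted p = 9.99e-13). DEH2 exceeded UBQ by 5.93 ± 0.35 SE (limma adjusted p = 6.29e-15), and its difference from WT, 0.50, did not pass.

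A smaller number of members ran the other way and were higher in the lines under drought. TraesCS2D02G557300 had 2321, 2527 and 2218 in UBQ drought, 2719.9, 2674 and 3099 in DREM drought and 4636, 4521 and 4303 in DEH2 drought, against 279.8, 250.1 and 231 in WT drought. All 9 line libraries lay above WT. The log2 differences were 3.21 for UBQ, 3.48 for DREM and 4.14 for DEH2, each ± 0.15 SE (limma adjusted p = 2.87e-18, 4.30e-19 and 5.75e-21). Well-watered it was a minor transcript, at 24.3 ± 5.15 in UBQ, 25.2 ± 3.62 in DREM and 27.6 ± 7.47 in DEH2, against 64.2 ± 7.80 in WT (SD, n = 3 each).

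TraesCS2B02G538700 was low in WT drought. It had 57.0, 61.0 and 71.4 in UBQ drought, 46.5, 71.7 and 80.0 in DREM drought and 224, 225 and 227 in DEH2 drought, against 2.73, 15.8 and 5.11 in WT drought. The differences from WT were 3.14, 3.17 and 4.96 in that order, each ± 0.37 SE (limma adjusted p = 1.06e-07, 9.20e-08 and 4.29e-11). DEH2 drought lay just under the highest library of WT well-watered, in which the gene had 165, 227 and 184.

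TraesCS7D02G009400 was highest in DREM drought. It had 876, 746 and 765 in UBQ drought, 1546, 1555 and 1594 in DREM drought and 250.4, 255 and 253 in DEH2 drought, against 154, 120.0 and 149.9 in WT drought. DREM exceeded WT by 3.47 ± 0.28 SE (limma adjusted p = 2.78e-10) and DEH2 by 2.62 (limma adjusted p = 6.57e-08). No group overlapped another.

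TraesCS4B02G396900 was the member within the raised end of 4B, and among the drought groups it was high only in UBQ. It had 228, 209 and 178 in UBQ drought, 8.37, 7.26 and 12.2 in DREM drought and 6.53, 8.16 and 21.4 in DEH2 drought, against 11.1, 7.87 and 7.14 in WT drought. Its difference from WT in UBQ was 4.42 ± 0.32 SE (limma adjusted p = 1.41e-13), beside a median of 0.87 for the segment against the median of all 4 drought groups. The part of the segment in this value was not tested.

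Several members were silent in 1 drought group and clearly present in another. TraesCS7A02G115400 was at 0 in all 3 UBQ drought libraries and had 85.9, 103 and 165 in DREM drought and 16.4, 14.8 and 10.9 in DEH2 drought, against 53.7, 43.9 and 46.6 in WT drought. Set against a floor of 3 reads in each UBQ library, DREM was at least 50.3-fold higher than UBQ (limma adjusted p = 6.80e-13).

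TraesCS3B02G073700 was nearly absent from DREM drought, with 0.788, 0 and 0, about 1.14 reads over the group. It had 17.5, 11.0 and 6.99 in UBQ drought and 281, 312 and 257 in DEH2 drought, against 27.1, 22.4 and 29.3 in WT drought. DEH2 exceeded WT by 3.39 ± 0.39 SE (limma adjusted p = 3.91e-08), and DREM lay -7.87 from DEH2, a fitted value that depends on the pseudocount. Well-watered, DEH2 was the lowest group, at 5.57, 37.1 and 18.9, against 894, 872 and 819 in WT leaves.

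Among the drought groups, TraesCS6B02G227900 was abundant only in DEH2. Well-watered, it averaged 226 in UBQ, 203 in DREM and 61.9 in DEH2, against 566 in WT. It had 30.2, 17.6 and 34.2 in UBQ drought, 0.707, 8.19 and 4.72 in DREM drought and 491, 505 and 498 in DEH2 drought, against 9.49, 4.93 and 15.3 in WT drought. DEH2 exceeded WT by 5.63 ± 0.44 SE (limma adjusted p = 1.75e-09), a ratio of means of 50.2.

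The order of the drought groups was different again for members that were highest in UBQ. TraesCS3A02G149900 had 159.6, 184 and 144 in UBQ drought, 27.4, 11.4 and 28.2 in DREM drought and 51.3, 43.1 and 57.8 in DEH2 drought, against 112, 78.8 and 55.1 in WT drought. DREM lay -2.90 ± 0.36 SE from UBQ (limma adjusted p = 2.55e-07). TraesCS4A02G005200 had 232, 195 and 242 in UBQ drought, 104, 105 and 96.4 in DREM drought and 54.6, 40.3 and 61.6 in DEH2 drought, against 36.4, 22.7 and 28.6 in WT drought, and DEH2 lay -2.09 ± 0.27 SE from UBQ (limma adjusted p = 1.14e-07).

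A pair of members had the narrowest range of drought group means. TraesCS7A02G428500 was at or near 0 in all 12 drought libraries, with a highest value of 2.31, although it had 127 ± 21.5 in WT well-watered (SD, n = 3). TraesCS7B02G480700 had 38.1, 34.3 and 40.6 in UBQ drought, 43.3, 43.0 and 43.8 in DREM drought and 40.6, 56.3 and 51.0 in DEH2 drought, against 65.9, 70.2 and 60.5 in WT drought. It was lower in UBQ (-0.78 ± 0.29 SE, limma adjusted p = 0.0188), and the differences in DREM and DEH2, -0.58 and -0.41, did not pass, although each line stayed below every WT library.

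The genes chosen for their extremes when watered differed from each other under drought. TraesCS3B02G578200 had 2245, 2289 and 2217 in UBQ drought, 5296, 5392 and 5910.0 in DREM drought and 5099, 4616 and 4924 in DEH2 drought, against 6477, 5639 and 5529 in WT drought. UBQ stayed lower (-1.38 ± 0.07 SE, limma adjusted p = 6.35e-18), and so did DEH2 by a small margin (-0.27 ± 0.07 SE, limma adjusted p = 0.00102), whereas the difference in DREM, -0.09, did not pass. TraesCS3D02G141100 had 5196, 5366 and 4814 in UBQ drought, 8109, 8379.5 and 8474 in DREM drought and 10443, 8857 and 9954 in DEH2 drought, against 11353, 9801 and 10682 in WT drought.

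TraesCS1B02G397500, the member lowest when watered, had 11.8, 3.88 and 9.72 in UBQ drought, 3.82, 6.69 and 8.54 in DREM drought and 16.1, 17.0 and 20.8 in DEH2 drought, against 8.40, 5.79 and 11.1 in WT drought, and none of the 3 differences from WT passed. TraesCS3D02G061000 was at 0 in DREM drought and had 0, 0.926 and 0 in UBQ drought and 45.7, 35.0 and 30.7 in DEH2 drought, against 5.49, 3.96 and 2.05 in WT drought. It was higher in DEH2 than in WT (3.03 ± 0.53 SE, limma adjusted p = 1.24e-05). UBQ (-1.89 ± 0.53 SE, limma adjusted p = 0.00282) and DREM (-2.21 ± 0.53 SE, limma adjusted p = 6.69e-04) were called lower, although WT itself was near the floor of 3 reads.

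At the edge of the rule the drought values of the members kept were not marginal. TraesCS4B02G143700 had 130.2, 158 and 144 in UBQ drought, 476, 474 and 391 in DREM drought and 420.3, 439 and 477 in DEH2 drought, against 1487, 1579 and 1518 in WT drought. The difference from WT was -3.40 ± 0.11 SE in UBQ (limma adjusted p = 5.07e-23) and -1.78 in both DREM and DEH2. TraesCS2B02G411800 had 355 ± 9.03 in UBQ drought, 133 ± 37.7 in DREM drought and 555 ± 60.9 in DEH2 drought, against 937 ± 119 in WT drought (SD, n = 3 each). Just outside the rule, TraesCS3D02G077400 averaged at most 2.84 in any drought group. TraesCS4B02G207900 had 1131 ± 96.5 in DREM drought, but 6335 ± 493 in UBQ drought and 7541 ± 253 in DEH2 drought, against 7259 ± 420.4 in WT drought (SD, n = 3 each).

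Set against their own well-watered libraries, the members fell most often in WT, but the well-watered libraries chose the members, so these values are a description with no test. Of the 98 members 58 were at least 2-fold lower and 13 at least 2-fold higher in WT drought than in WT well-watered, beside 16.9% and 14.1% of all tested genes. The median change was -1.28. UBQ had 39 members at least 2-fold lower and 32 higher with drought (21.8% and 23.1% of all tested genes, median -0.34). DREM had 39 lower and 20 higher (20% and 19.5%, median -0.36), and DEH2 28 lower and 46 higher (20.3% and 20.1%, median 0.69). The genotype labels also do not pair these libraries safely, as the stretches above show. In absolute level, 19 members in UBQ drought, 13 in DREM drought and 21 in DEH2 drought reached at least the mean of WT well-watered, as did 25 in WT drought. Members with every library under 3 reads numbered 9 in UBQ drought, 10 in DREM drought and 4 in DEH2 drought, against 7 in WT drought. Well-watered they numbered 3 in UBQ, 2 in DREM and 1 in DEH2, against 0 in WT. For these counts of level and floor no share over all tested genes was computed, so nothing is read from them.

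Scaling every library to a common sum in place of the authors' scaling moved all genes. The median over all tested genes then lay at 0.35 in UBQ, 0.46 in DREM and 0.26 in DEH2 against WT drought, and 44.9%, 50.9% and 39.3% of them were called higher and 17.3%, 14.6% and 18% lower. Of the members, UBQ then had 44 lower and 20 higher, DREM 49 lower and 19 higher, and DEH2 31 lower and 38 higher. Their medians were -0.59, -0.80 and 0.20, below the median of all genes in each line.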

How the data were processed

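Leaf RNA was sequenced in 24 libraries, which carry 1 batch label. Per the labels, TruSeq libraries were sequenced from both ends on a NovaSeq instrument. CASAVA, Trimmomatic, STAR, Salmon and DESeq2 appear in the submitters' processing notes with no version. Of genome build and annotation, nothing is stated there. The authors deposited normalized counts, a signal on a scale set between libraries and not to a common sum. Genes seen in 1 library step by the value of 1 read (0.651 to 1.54), since 93.0% to 99.5% of them are whole multiples within 0.01; over all genes few were, so no count model was fitted. A floor of 3 reads is a value of 1.95 to 4.63 and covers counting error only.

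With R 4.3.3 (package data.table, version 1.17.8), limma 3.58.1 (trend, robust) was fitted to log2(value + 1) of 8 groups for genes reaching 10 in 3 or more libraries, with 6 comparisons of drought groups, tested on both sides, and Benjamini-Hochberg adjustment over 60088 genes. This scale understates the change of low genes. The scripts were tested on simulated data. The members, lists and rules were chosen with earlier results of these data known. At most 2 identifiers were named for each of: the lowest and the most abundant members when watered, the edges of the rule, the largest called rises and falls in each comparison (groups not overlapping, higher mean at least 50), members moved alike in all 3 lines, the steadiest members under drought, and the genes outside most like the member mean. Members in runs of neighbours were also named. Alternatives were pseudocounts, filters, scalings, a replicate block, drought libraries alone and leaving out libraries.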

Additional observations from a re-analysis of the deposited data

Results flagged for a closer look

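Only members named for the largest rises and falls, or for moving alike in all 3 lines, were scanned here. They were set apart where 2 lines were called in opposite directions against WT drought and the lines themselves differed by the limma test. Members named for other reasons were not scanned. Of these, TraesCS3D02G061000, TraesCS3D02G517300, TraesCS1B02G397200 and TraesCS1B02G397700 were also called lower in DREM and higher in DEH2 than in WT drought. TraesCS6B02G227900 was higher in DEH2 (5.63) and UBQ (1.44) and lower in DREM (-1.17) than in WT, and DREM lay -6.80 from DEH2 (limma adjusted p = 2.32e-10) and -2.61 from UBQ (8.18e-05); DREM and WT overlapped. TraesCS7A02G115400 was higher in DREM (1.23) and lower in UBQ (-5.61) and DEH2 (-1.72), and DREM exceeded UBQ by 6.84 (limma adjusted p = 6.80e-13) and DEH2 by 2.95 (1.20e-05). TraesCS3A02G149900 was higher in UBQ (1.03) and lower in DREM (-1.87), which lay -2.90 from UBQ (limma adjusted p = 2.55e-07). TraesCS3B02G073700 was higher in DEH2 (3.39) and lower in UBQ (-1.17) and DREM (-4.48); DEH2 exceeded UBQ by 4.55 (limma adjusted p = 4.69e-10) and DREM lay -7.87 from DEH2 (8.24e-15). All values are differences of log2(value + 1) between drought groups of 3 libraries each, and libraries of each called pair did not overlap except where stated.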

How the results depend on the processing

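Medians are of the members' log2 differences between drought groups. With a pseudocount of 0.5 they were -0.90 for UBQ and -1.25 for DREM against WT, 0.92 for DEH2 against UBQ and -1.09 for DREM against DEH2. A pseudocount of 5 gave -0.62 for UBQ, -0.80 for DREM and -0.055 for DEH2 against WT, and 0.75 for DEH2 against UBQ. Requiring 50 in 3 or more libraries gave -0.90 for UBQ and -0.11 for DEH2 against WT. A common library sum gave -0.59, -0.80 and 0.20 for UBQ, DREM and DEH2 against WT and 0.076 for DREM against UBQ. Quantile normalization gave -0.92 for UBQ and -1.27 for DREM against WT and -1.002 for DREM against DEH2. Without the member on 4B the median was -0.080 for DEH2 against WT. The cause of these moves was not tested. With a minimum WT mean of 100, 64 genes met the rule, and with a difference of -1.5 or less 27 did, against 98.

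Leaving out 1 library at a time gave medians of -0.91 to -0.79 for UBQ, -1.27 to -1.08 for DREM and -0.11 to 0.052 for DEH2 against WT. Between lines it gave -0.088 to 0.00 for DREM against UBQ, 0.81 to 0.92 for DEH2 against UBQ and -1.08 to -0.83 for DREM against DEH2. The sign for DEH2 against WT is therefore not settled, and 93 to 115 genes met the rule.

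Same-numbered drought libraries did not deviate together (r from -0.06 to 0.05 over 18 pairs), so numbers were not taken as pairs. With the replicate number as a block 53 members were lower and 18 higher in UBQ than in WT, beside 30.2% and 30.6% of all tested genes. For DREM against WT the block gave 59 and 17, beside 30.2% and 28.5%, and for DEH2 against WT 37 and 33, beside 29.6% and 28.3%. It left both counts as they were for DREM against UBQ, DEH2 against UBQ and DREM against DEH2, with 53, 64 and 65 calls in all. Of recomputed values of named members 634 kept their direction and call, 4 lost the call and 0 reversed. The 4 were TraesCSU02G186800 in UBQ and DREM, without 1 library as given above, or with drought libraries alone (limma adjusted p = 0.0805 and 0.0847). The named members were picked for large called differences in the same libraries, so few could change, and these counts are a description. Depth limits values under 3 reads.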

Other observations

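Among genes outside the set with a mean of at least 50, the pair that followed the member mean most closely over the 12 drought libraries was more abundant than any member in each drought group. TraesCS5A02G322500 averaged 26538 ± 2015 in UBQ drought, 15879.5 ± 1087 in DREM drought and 116208 ± 5871 in DEH2 drought, against 111870.0 ± 5187 in WT drought (SD, n = 3 each). TraesCS2D02G294300 averaged 10838 ± 265 in UBQ drought, 8480.1 ± 363 in DREM drought and 33027 ± 352 in DEH2 drought, against 34129.5 ± 2043 in WT drought (SD, n = 3 each). Both were low in UBQ and DREM drought, while DEH2 and WT drought libraries overlapped. Neither was lower in all lines when watered: TraesCS5A02G322500 averaged 454495 ± 39413 in UBQ well-watered against 295301 ± 13001 in WT well-watered (SD, n = 3 each).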
